A study of Drosophila melanogaster with 5 samples.

Results

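Long noncoding RNA (lncRNA) genes make transcripts that are not translated, and many of them in *Drosophila* lie between or inside the long genes that neurons use. Of the 80590 regions in the deposited comparison of dopamine and GABA neurons, 7107 (8.82%) had a lncRNA gene as their nearest gene, and these belonged to 1385 lncRNA genes. They were taken by name, as every region whose nearest gene symbol began with lncRNA, apart from 15 regions nearest to the dosage compensation RNAs lncRNA:roX1 and lncRNA:roX2, which were not analysed here. No accessibility value was used to choose them. All 1385 genes matched a RefSeq gene of *Drosophila* Release 6 by identifier, and RefSeq listed 1383 of them as lncRNA genes, of 1996 lncRNA genes in all.

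The libraries came from adult fly heads in which Gal4 drove a nuclear green fluorescent protein (GFP), and GFP+ nuclei were sorted before tagmentation. The dopamine group held 2 libraries from *TH-Gal4* flies and the GABA group 3 libraries from *vGAT-Gal4* flies. Both groups carried a nuclear GFP reporter, both were reared at 25 degrees C on cornmeal agar, neither received a treatment, and the age and sex of the flies were not given. Each library was made from pooled flies, and *TH-Gal4*, which uses regulatory DNA of *ple*, is known to miss part of the dopamine neurons. Nothing states that the replicates came from separate crosses, so p-values measure the spread between these libraries.

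ATAC-seq cuts and tags chromatin with the transposase Tn5, which enters where the DNA is open, and sequences the tagged fragments. Open regions include start sites of transcription and enhancers, which act from within introns or between genes. A lncRNA can act on neighbouring genes, or its transcription may only accompany the activity of an enhancer, so open chromatin beside a lncRNA gene need not act on that lncRNA. A region is assigned here to the gene with the nearest start site, which is a statement about position alone. A narrow cell type such as dopamine neurons is a small part of the fly brain, and a bulk profile of it averages over all its subtypes.

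Each library has its own list of peaks called by MACS2, with a fold enrichment of the signal at the peak summit over its background. The dopamine lists held 69464 and 69940 peaks and the GABA lists 84055, 81638 and 107219. Fold enrichment started at 1.80 and 1.93 in the dopamine lists and at 1.25 to 1.28 in the GABA lists, and ended at 8.49 and 11.2 against 16.0 to 21.5. The lists therefore differ in scale and reach. A value was ranked within its own list as a percentile, or quantile normalized between libraries, before neuron types were compared. The peak lists give no read count behind a peak, and read depths stated by the study were not used here. At promoters of *ple*, which encodes tyrosine hydroxylase, the highest peak stood at the 99.95 and 99.96 percentiles in dopamine libraries and at 75.7 to 85.1 in GABA libraries. At *Gad1*, the GABA-synthesizing enzyme, it stood at 63.4 and 53.6 against 97.8 to 98.1. The other dopaminergic marker genes did not separate the groups in this direction (*DAT* at 88.7 and 80.9 against 87.6 to 94.8, *Vmat* at 24.2 and no peak against 53.4 to 63.2, *Ddc* at 87.9 and 89.6 against 82.7 to 90.4). Markers of other cells also moved between the groups. The glial gene *moody* was at 99.2 and 99.8 against 92.2 to 93.5 and *Gs2* at 97.7 and 96.5 against 90.02 to 94.1, whereas *repo* overlapped between groups. The cholinergic and glutamatergic genes *VAChT*, *ChAT* and *VGlut* lay between 46.4 and 80.9 in the dopamine lists and between 90.8 and 99.6 in the GABA lists. *VGAT* was at 71.3 and 76.6 against 99.4 to 99.8, and of the pan-neuronal genes, *elav* stood at 98.6 and 98.5 against 94.2 to 97.2, *nSyb* at 74.5 and 86.8 against 97.4 to 97.9, and *brp* at 84.8 and 95.1 against 94.8 to 97.4. Photoreceptor *ninaE* and *ninaC* overlapped between groups. Muscle *Mhc* and fat body *Lsp2* had no promoter region, and muscle *Act88F* and fat body *Fbp1* had no promoter peak in dopamine libraries, with 27.4 to 80.7 in the GABA libraries and 53.3 in GABA library 3, respectively. The part of other cells in the results below was not tested.

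Regions nearest to lncRNA genes lay farther from start sites and outside protein-coding genes more often than other regions. Their median distance to the start site was 3175 bp against 1447 bp for the 73483 other regions, and 17.8% lay beyond 10 kb against 9.47%. Only 312 (4.39%) covered the start site itself, from 303 genes, against 12.01% of other regions. By the deposited annotation, 2710 (38.1%) were promoter regions, a class that reaches 2 kb from a start site, 1960 (27.6%) were intronic, 1624 (22.9%) were distal intergenic and 638 (8.98%) were exonic. Among other regions the same classes held 57.9%, 19.0%, 5.60% and 13.9%. The remaining lncRNA regions were 133 in 3′ UTRs, 29 in 5′ UTRs and 13 just downstream of a gene.

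In the intron and exon classes, the gene that held such a region was rarely the lncRNA itself. Regions within 2 kb of their nearest start site were all in the promoter class. These counts therefore leave out regions in the first 2 kb of a lncRNA gene. Of 2598 lncRNA regions in introns or exons, 157 were in their own lncRNA gene and 2441 (94.0%) were in another gene, compared with 45.5% of other regions. RefSeq protein-coding genes spanned 52.0% of lncRNA regions and 88.7% of other regions, and 34.7% against 10.9% fell in neither a protein-coding nor a lncRNA gene. RefSeq lncRNA genes spanned 1448 (20.4%) of the lncRNA regions. The regions were of similar size (median 152 bp against 178 bp, the longest lncRNA region being 3480 bp) and of similar mean signal over all 5 libraries in the authors' table (median 74.2 against 81.8 normalized counts). Chromosome arms 2L and 3L held more of the lncRNA regions (22.4% and 26.2%) than of other regions (17.2% and 19.4%), and arms 2R and X fewer (14.6% against 20.8%, and 10.5% against 17.3%).

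Fewer lncRNA regions had a peak in dopamine neurons than in GABA neurons. A peak overlapped 2020 (28.4%) and 2214 (31.2%) of them in the dopamine libraries, and 3833 (53.9%), 3982 (56.0%) and 4564 (64.2%) in the GABA libraries. The groups did not overlap, with means of 29.8% ± 1.93 (SD, n = 2) and 58.1% ± 5.44 (SD, n = 3). The difference of -28.3 percentage points had p = 0.2 in a two-sided exact permutation test, the smallest p that 2 against 3 libraries allow. Other regions were at 41.6% and 41.3% in dopamine libraries and 49.1%, 48.5% and 59.8% in GABA libraries. Relative to other regions in the same library, lncRNA regions stood at -13.2 and -10.1 points in dopamine libraries and at 4.82, 7.50 and 4.42 points in GABA libraries. Both dopamine libraries thus lay on the opposite side from all GABA libraries, and the gap between the groups was -17.2 points (exact permutation p = 0.2, again the smallest possible). Averaged over all 5 libraries the difference between lncRNA and other regions was -1.31 points (exact sign-flip permutation test, two-sided p = 0.75), and it became 1.66 and 0.888 points when dopamine library 1 or 2 was left out.

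**Figure D1:**
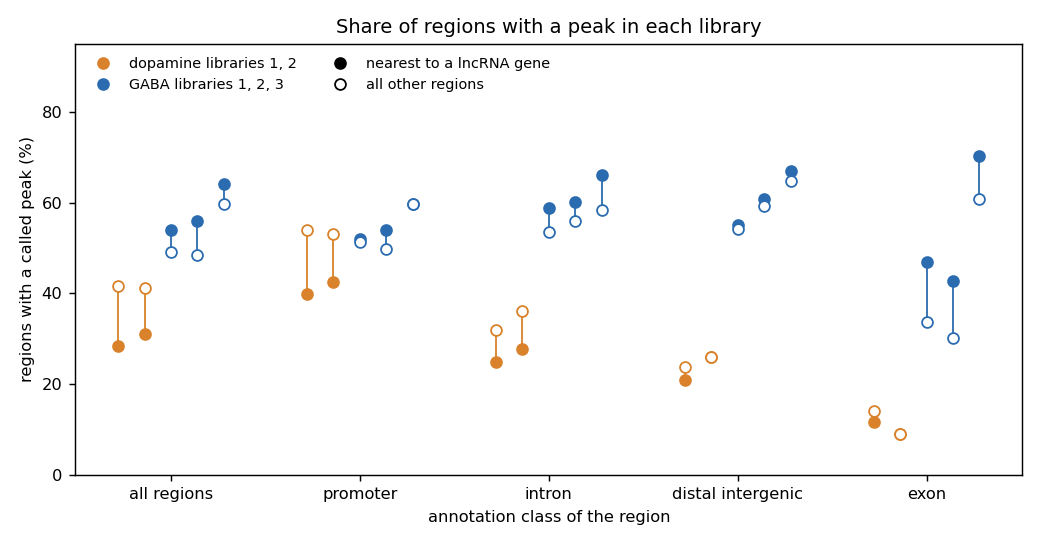
Percent of regions with a called peak (vertical axis) in each library, for all regions and 4 annotation classes, with filled points for regions nearest to a lncRNA gene, open points for all other regions, and a line joining the pair of a library (2 dopamine libraries orange, 3 GABA libraries blue). Over all regions the filled points lie at 28.4% and 31.2% in dopamine libraries and at 53.9% to 64.2% in GABA libraries, below their open partners in the former and above them in the latter.

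The gap between neuron types, relative to other regions, was -13.9 points in promoters, -13.4 in introns, -12.9 in exons and -3.00 in distal intergenic DNA, each with an exact permutation p = 0.2. In promoter regions, 39.8% and 42.6% of lncRNA regions had a peak in dopamine libraries and 51.9%, 54.0% and 59.7% in GABA libraries. Other promoter regions were at 53.9% and 53.0% against 51.3%, 49.9% and 59.7%, so the difference of lncRNA from other promoter regions was -14.1 and -10.4 points in dopamine libraries and between 0.0381 and 4.09 points in GABA libraries. Averaged over the 5 libraries, this promoter difference was -3.96 points (exact sign-flip permutation p = 0.5). In introns, lncRNA regions were at 24.9% and 27.7% against 58.8%, 60.2% and 66.1%, a difference from other introns of -6.93 and -8.49 points in dopamine libraries and of 4.25 to 7.70 points in GABA libraries. In distal intergenic DNA, lncRNA and other regions differed by less than 3 points in each library (from -2.85 to 2.30). Exonic lncRNA regions were at 11.6% and 9.09% in dopamine libraries and at 47.0%, 42.6% and 70.2% in GABA libraries. Other exonic regions had the same order, at 14.1% and 8.93% against 33.6%, 30.2% and 60.9%.

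At start sites the order of the neuron types was the opposite, for lncRNA genes and for other genes. Of the 312 regions that covered a start site, 79.5% and 80.1% had a peak in dopamine libraries and 75.6%, 76.3% and 77.2% in GABA libraries, so here the dopamine libraries were the higher group (difference 3.42 points, exact permutation p = 0.2). Other start sites were at 93.5% and 95.1% against 83.7%, 85.3% and 80.1%, so that relative to them the gap between neuron types at lncRNA start sites was -7.80 points (exact permutation p = 0.2). In all 5 libraries fewer lncRNA start sites than other start sites had a peak, with differences of -14.0 and -14.9 points in dopamine libraries and of -8.06, -9.06 and -2.88 points in GABA libraries. The mean of -9.79 points had p = 0.0625, the smallest that the exact sign-flip permutation test of 5 libraries allows. With distance from the start site the neuron types drew apart. Within 1 kb, start sites left out, the lncRNA regions with a peak made up 38.1% and 40.6% against 50.3%, 51.9% and 56.2%. Beyond 10 kb they made up 15.02% and 16.8% in the dopamine libraries against 58.7%, 60.5% and 71.5% in the GABA libraries. Other regions beyond 10 kb were close to these values (20.03% and 22.3% against 58.3%, 61.0% and 69.4%). Between 1 and 2 kb they were not, since GABA libraries had a peak in 46.4%, 49.8% and 59.5% of lncRNA regions and in 33.0%, 30.8% and 49.2% of other regions.

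**Figure D2:**
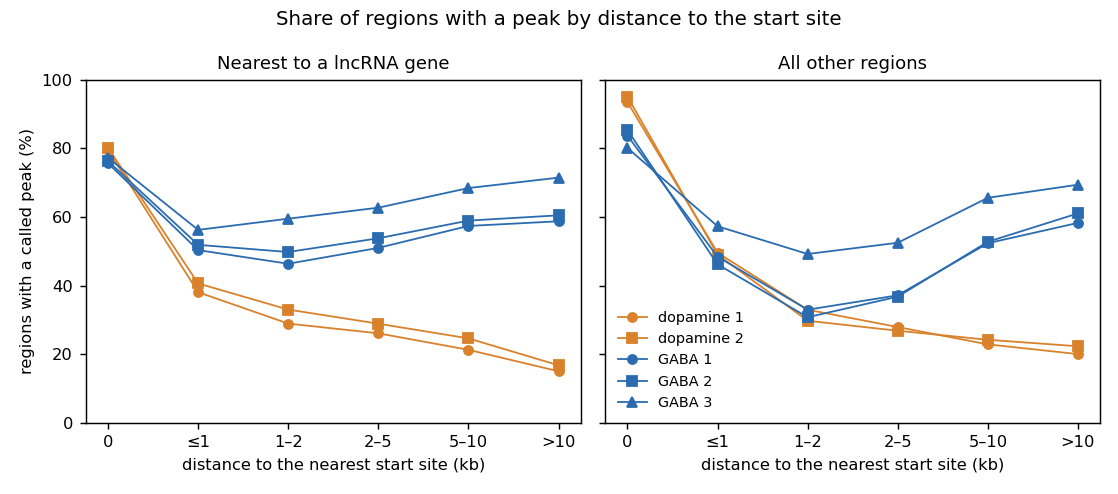
Percent of regions with a called peak (vertical axis) by distance to the nearest start site in kb (horizontal axis, 6 bins), for regions nearest to a lncRNA gene (left) and all other regions (right), 1 line per library. Both panels fall with distance in the dopamine libraries, to 15.02% and 16.8% of lncRNA regions beyond 10 kb, while the GABA libraries end at 58.7% to 71.5%.

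Patterns of calls leaned to GABA neurons. A peak was present in all GABA lists and no dopamine list at 1599 lncRNA regions (22.5%), where 13.2% of all 80590 regions showed this pattern. The opposite pattern, both dopamine lists and no GABA list, was present at 513 (7.22%), where 8.42% of all regions showed it. All 5 lists had a peak at 1001 lncRNA regions (14.1%, against 20.6% of all regions) and no list at 1183 (16.6%, against 19.5%). The remaining 2811 (39.6%) had a peak in some other combination of lists. When every list was cut to its strongest 69464 peaks, 1114 lncRNA regions were called in GABA lists alone and 574 in dopamine lists alone. The shares of all regions under this cut are not given here, so these 2 counts have no background to be read against. The GABA-only pattern held 16.3% of lncRNA promoter regions but 6.97% of other promoter regions, and at start sites 7.05% against 1.37%. In introns (25.9% against 21.5%) and distal intergenic DNA (27.3% against 24.5%) the shares of lncRNA and other regions were closer, and among exonic regions they were 26.2% and 15.6%. The dopamine-only pattern was most frequent in promoter regions, with 10.6% of lncRNA and 10.04% of other promoter regions, and was lower among lncRNA introns than other introns (5.71% against 9.99%). On arm X it held 11.3% of lncRNA regions and 7.93% of others, whereas on arm 3R it held 4.98% and 8.78%.

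Regions of these patterns differed in place and strength. GABA-only regions lay a median of 4604 bp from the start site and dopamine-only regions 1585 bp, and 27.6% against 55.8% of them were promoter regions. Regions called in all 5 lists were the widest, with a median of 451 bp and a mean signal of 315 normalized counts. GABA-only regions had medians of 180 bp and 85.4 counts, dopamine-only regions 150 bp and 98.2 counts, and regions called in no list had a mean signal of 48.2 counts. Among the lncRNA regions the uncalled ones thus had the lowest median signal, and a missing call is not a measurement of closed chromatin.

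Peak strength could be compared at the 1001 lncRNA regions with a peak in all 5 lists. Their median percentile was 61.1 and 63.8 in dopamine libraries and 82.8, 81.0 and 86.8 in GABA libraries, a difference of -21.1 without overlap between groups (exact permutation p = 0.2). Other regions with a peak in all lists were at 71.3 and 75.0 against 80.6, 81.0 and 83.6. The difference between lncRNA and other regions, averaged over libraries, was -3.19 (exact sign-flip permutation p = 0.5). A limma moderated test on log2 fold enrichment, quantile normalized and adjusted by Benjamini-Hochberg over all 16601 regions with a peak in every list, called 229 lncRNA regions (22.9%) higher in dopamine neurons and 416 (41.6%) higher in GABA neurons at an adjusted p under 0.05. Of all regions tested, 24.9% were higher in dopamine neurons and 27.1% higher in GABA neurons. The median log2 difference, dopamine minus GABA, was -0.21 over lncRNA regions and -0.01 over the others. The called lncRNA differences ranged from 2.08 to -1.67, and the smallest in size was 0.35 against a median standard error of 0.14.

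By class, the share of regions higher in GABA neurons differed most between lncRNA and other regions in promoters, among promoters, introns, exons and distal intergenic DNA. Among promoter regions, 35.3% of lncRNA regions and 21.6% of the others were higher in GABA neurons, and 26.7% and 26.5% were higher in dopamine neurons. At start sites the same comparison gave 30.0% and 19.6% for GABA neurons, and 31.6% and 30.0% for dopamine neurons. In introns 44.8% of lncRNA and 46.0% of other regions were higher in GABA neurons, in distal intergenic DNA 59.3% and 58.6%, and among exons 31.6% of only 19 fitted lncRNA regions and 34.9% of the others. The medians repeated this order, at -0.08 and 0.04 in promoters, -0.31 and -0.32 in introns, and -0.60 and -0.56 in distal intergenic DNA for lncRNA and other regions. These shares are descriptions over regions, which share peaks and neighbourhoods, and the sets were not tested against each other.

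**Figure D3:**
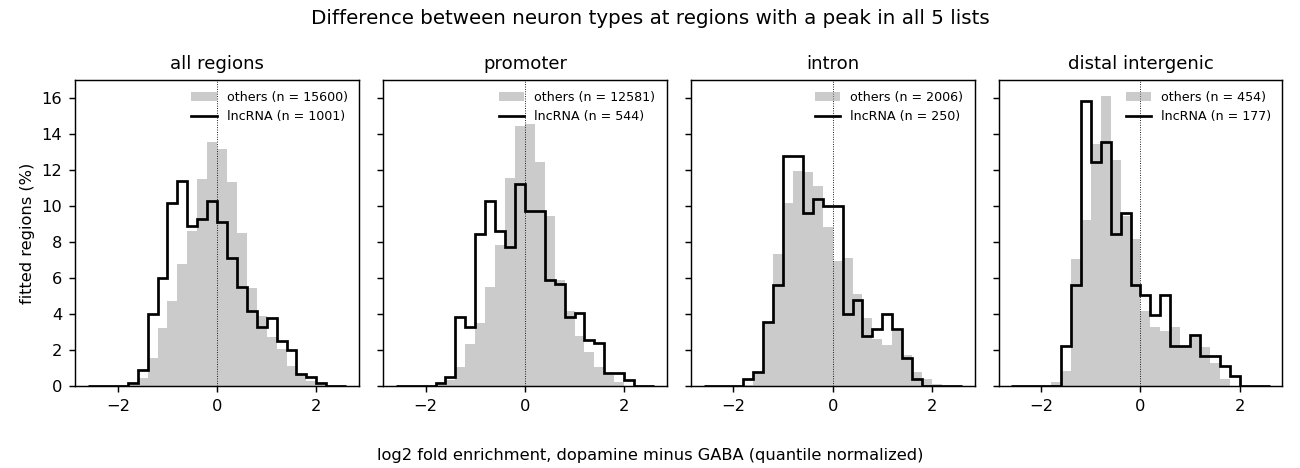
Distribution of the log2 difference in fold enrichment, dopamine minus GABA (horizontal axis, quantile normalized, bins of 0.2), as percent of fitted regions (vertical axis), for lncRNA regions (black line) and others (grey), over all classes and in 3 classes. The lncRNA distribution lies to the left of the others over all regions (median -0.21 against -0.01) and in promoters, and overlaps them in introns and distal intergenic DNA.

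Regions were spread unevenly over the lncRNA genes. Of 1385 genes, 341 had 1 region and 200 had 10 or more, which together held 3270 regions, and the median was 3. A region called in all 5 lists occurred beside 547 genes (39.5%), one called in both dopamine lists beside 732, and one called in all GABA lists beside 958. A dopamine-only region lay beside 286 genes (20.6%), a GABA-only region beside 583 (42.1%), and both kinds beside 54. Of 13032 other genes, 25.0% had a dopamine-only and 28.4% a GABA-only region, with a median of 4 regions a gene. At 67 lncRNA genes no list had a peak in any region. Matching shares of other genes for these 67, and for the 732 and 958 above, are not given here. Among the 200 lncRNA genes with 10 or more regions, 151 had more GABA-only than dopamine-only regions, 37 had fewer and 12 had equal numbers. Other genes were not counted in this way. Over all regions the GABA-only pattern was also the more frequent, at 13.2% against 8.42%.

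The 5 genes with the most regions were each placed in or beside a long protein-coding gene. CR43905 on 2R had 45 regions, 37 of them in introns or exons of *jing*, a zinc-finger transcription factor gene. Dopamine libraries had a peak in 7 and 6 of these regions and GABA libraries in 24, 24 and 33. No region was dopamine-only and 9 were GABA-only. CR45959 on 3L had 43 regions, 35 in *mub*, which encodes an RNA-binding protein of the mushroom bodies, with peaks in 5 and 8 against 20, 20 and 18. CR46073 on 3R had 42 regions, 17 of them in the Toll receptor gene *Tl*, with peaks in 7 and 5 against 25, 29 and 27. In each of these genes the lowest GABA library had over 2 times as many peaks as the highest dopamine library. CR44834 on X had 41 regions, 28 in *rugose* (*rg*), an A kinase anchor protein gene. Its regions were called in 2 of the 41 in each dopamine library and in 36, 29 and 32 in the GABA libraries. CR46007 on 3R also had 41 regions, 25 in *side-VI*, of the Side family of immunoglobulin receptors that guide axons, with peaks in 2 and 3 against 29, 32 and 33. It had 22 GABA-only regions, whose fold enrichment ran from 1.81 to 4.09, 1.86 to 3.96 and 1.63 to 4.21 in the 3 libraries.

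**Figure D4:**
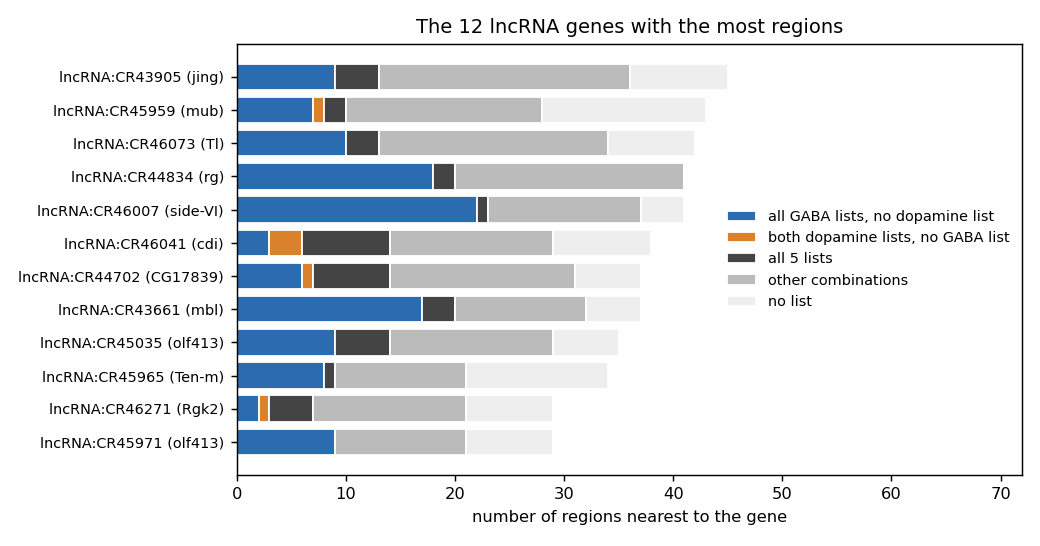
Number of regions (horizontal axis) nearest to each of the 12 lncRNA genes with the most regions, with the gene that holds most of their intronic or exonic regions in brackets, split by the lists that called a peak. Blue GABA-only parts reach 22 of 41 regions at CR46007, and the orange dopamine-only parts hold at most 3 regions of a gene.

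The 15 genes that held the most lncRNA regions in their introns or exons contained 589 of them, of which 170 (28.9%) were GABA-only and 14 (2.38%) dopamine-only, and 10 of the 15 held no dopamine-only region. Over all 2441 lncRNA regions in introns or exons of another gene, 26.7% were GABA-only and 4.14% dopamine-only. Among other regions in introns or exons of a gene that was not their nearest, the shares were 21.8% and 3.84%. *olf413* held 69, with 21 GABA-only. *Ten-m*, a teneurin that matches synaptic partners, held 63, with 16 GABA-only. The splicing regulator *mbl* held 46, with 24 GABA-only, and *dpr6*, an immunoglobulin gene of neuronal wiring, held 39, with 23 GABA-only. The Wnt receptor gene *fz2* held 35, with 4 dopamine-only and 7 GABA-only, and the cell polarity gene *scrib* held 31, with 3 and 6.

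The lncRNA genes richest in each pattern were picked by these counts after they were seen. CR45159 on 3L had 20 regions, 15 of them in *Snap25*, a SNARE gene of synaptic vesicle release, and 16 were GABA-only. Peaks were called in 1 of the 20 regions in each dopamine library and in 19, 17 and 20 in the GABA libraries. CR43455 on 3R had all its 20 regions in *nAChRalpha1*, an acetylcholine receptor subunit, and 14 were GABA-only, with peaks in 2 and 3 of 20 against 19 in each GABA library. The opposite pattern was most frequent beside CR43878 on 3L, where 7 of 16 regions were dopamine-only and none GABA-only. Dopamine libraries had a peak in 15 of its regions each and GABA libraries in 8, 7 and 8, and the 7 dopamine-only regions reached a fold enrichment of 5.56 and 7.17. Of its regions 9 were in introns or exons of *mub*, as were 35 of the 43 regions of CR45959. The regions of CR43878 ran from 21883038 to 21895096, and those of CR45959, with 7 GABA-only and 1 dopamine-only, from 21895919 to 21919726 on 3L. CR43963 on X had 27 regions, 18 in the corepressor gene *Smr*, of which 6 were dopamine-only and none GABA-only. At CR32218 on 3L, 6 of 17 regions were dopamine-only, again with none GABA-only, and 6 of its regions lay in the chromatin remodeller *Mi-2*.

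The lncRNA genes with names of their own numbered 21, with 79 regions. Of these regions 17 (21.5%) had a peak in all lists, 15 (19.0%) were GABA-only, 3 (3.797%) dopamine-only and 18 (22.8%) had no peak, where all regions stood at 20.6%, 13.2%, 8.42% and 19.5%. Among the 17 that could be fitted, 9 were higher in GABA neurons, 3 higher in dopamine neurons and 5 did not pass the threshold. Of all regions fitted, 27.1% were higher in GABA neurons and 24.9% higher in dopamine neurons.

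The bithorax complex on 3R holds the Hox genes of the abdomen and the posterior thorax together with several lncRNAs that lie within its regulatory DNA. The regions of *bxd*, TS16, *iab4* and *iab8* numbered 13, and this grouping by place was made after their values were seen. A peak was called in every GABA library at 11 of them, 3 were GABA-only and none was dopamine-only. Over all lncRNA regions, 22.5% were GABA-only and 7.22% dopamine-only. Over all regions these shares were 13.2% and 8.42%. With only 13 regions, the GABA-only and dopamine-only counts do not set this locus apart from other lncRNA regions. The share of regions elsewhere with a peak in every GABA list is not given here. Of the 13 regions, the 6 with a peak in every list were all higher in GABA neurons, with log2 differences from -0.69 to -1.39. These 6 are among the 9 named lncRNA regions counted above as higher in GABA neurons, so 1 locus supplies most of them.

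*iab8* is a lncRNA gene with a transcript that represses *abd-A* in the posterior nervous system. The distances of its regions refer to several start sites, and which transcript starts at each was not examined. At the start site covered by 3R 16899479 to 16900028, fold enrichment was 3.83 and 5.12 in dopamine libraries and 16.4, 15.6 and 9.22 in GABA libraries. The lowest GABA library was above the highest dopamine library, and the log2 difference was -1.34 ± 0.14 (SE, limma adjusted p = 4.55e-05), or 2.52 times higher in GABA neurons on the normalized scale. A region in intron 2 of *iab8* (3R 16882405 to 16882977) had values of 2.93 and 4.10 against 8.87, 11.1 and 6.50 (log2 difference -1.24). The region nearest to TS16, 10464 bp from the TS16 start site, lies in intron 4 of the Hox gene *abd-A* (3R 16811763 to 16812190). It had 2.86 and 3.98 against 12.1, 10.3 and 6.89. This was the largest difference among the regions of named lncRNAs, at -1.39 (limma adjusted p = 4.12e-05). In intron 1 of *bxd* (3R 16763696 to 16764373), which is transcribed from the regulatory DNA upstream of *Ubx*, the values were 5.11 and 7.51 against 15.2, 15.3 and 10.4. The difference of -0.69 ± 0.13 (SE, limma adjusted p = 0.00152) did not pass when -log10 q replaced fold enrichment (-0.62, adjusted p = 0.0831). A narrower neighbouring region overlapped the same peaks of GABA libraries 1 and 2. At the start site of *iab4*, precursor of a microRNA that targets *Ubx*, dopamine libraries had no peak and the GABA libraries had 3.24, 5.44 and 3.42.

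**Figure D5:**
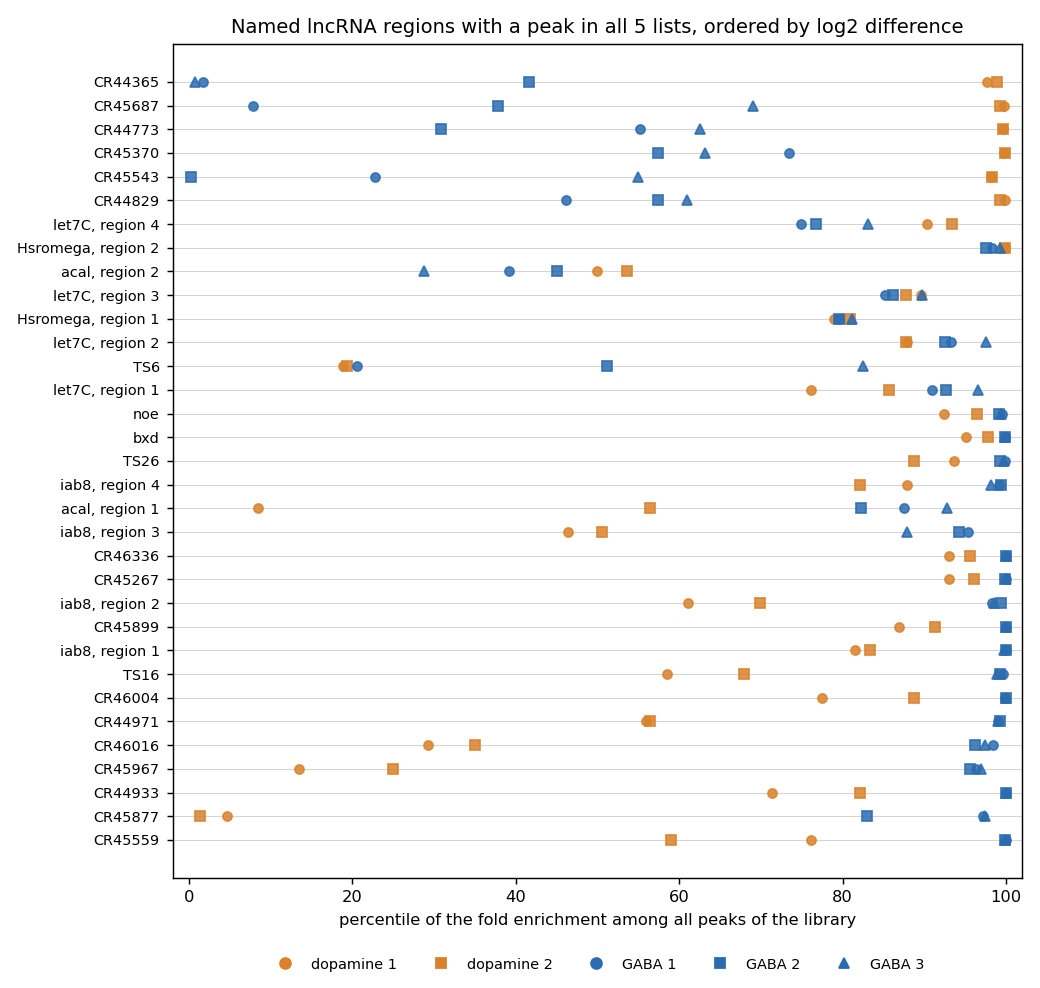
Percentile rank of a region's fold enrichment in the peak list of the library (horizontal axis) for the named regions with a peak in all 5 lists (1 row each), ordered by limma log2 difference with regions higher in dopamine neurons at the top, with orange for 2 dopamine and blue for 3 GABA libraries. The *iab8*, TS16 and *bxd* rows have all blue points to the right of the orange ones, and the CR44365 row has orange points at 97.7 and 98.9 and blue ones from 0.774 to 41.6.

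*cherub*, a lncRNA studied in neural stem cells, had 8 regions, and no dopamine library had a peak in any. GABA libraries had peaks in 6, 7 and 6 of them, and 5 were GABA-only. The regions 14793 to 19007 bp upstream of *cherub* lie in exons or introns of another lncRNA gene, CR31386. They include the GABA-only region at 3R 11271420. Closer to the *cherub* start site and also upstream, at 3R 11258854 to 11259192, fold enrichment was 3.18, 5.49 and 3.95. CRG, which adjoins the synaptic scaffold gene *CASK*, had no peak in dopamine libraries among 10 regions. GABA libraries had peaks in only 3, 2 and 5 of these, and 5 regions had no peak in any list. Beside its start site, at 3R 21786421 to 21787093, the GABA libraries had 3.67, 4.19 and 3.84.

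The *let7C* transcript, from which the let-7 microRNA and its cluster partners are cut, had 14 regions and mixed directions. At its start site (2L 18455446 to 18456440) the values of 4.28 and 5.58 against 5.87, 5.72 and 5.71 did not differ past the threshold (log2 difference -0.20, limma adjusted p = 0.265). Farther along intron 1 (2L 18459820 to 18460322) they were 4.51 and 6.37 against 3.38, 3.50 and 3.07. Here both dopamine libraries were above all GABA libraries, at 0.70 ± 0.13 (SE, limma adjusted p = 0.00114). The next region, at 18460385, and another of the same intron, at 18461653, were dopamine-only, with 2.40 and 2.96 at the former and 2.63 and 3.19 at the latter. Dopamine libraries had peaks in 7 and 8 of the 14 regions and GABA libraries in 4 each.

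*Hsromega*, a stress-inducible RNA that forms nuclear speckles, had strong peaks over its start site in every library (3R 21296064 to 21298393, 7.29 and 9.67 against 8.83, 8.05 and 7.45). Its log2 difference of 0.61 ± 0.14 (SE, limma adjusted p = 0.00336) turned to -0.05 (adjusted p = 0.799) when libraries were only median centred, so its direction rests on the scaling. The start site of *acal*, a regulator of JNK signalling in the embryo, had 1.95 and 3.41 against 4.61, 3.98 and 4.08. The difference was -0.86 (limma adjusted p = 0.00303), and -0.50 without dopamine library 1, where the adjusted p rose to 0.0964. A region 4425 bp upstream of *acal* leaned the other way at 0.35 (limma adjusted p = 0.0479), which missed the threshold without any 1 of the 5 libraries (adjusted p from 0.0621 to 0.136). At *noe*, the start site region had 4.73 and 7.06 against 11.5, 10.2 and 7.90, a difference of -0.49 (limma adjusted p = 0.0111) that missed the threshold without dopamine library 1 or GABA library 1 (adjusted p = 0.102 and 0.0537). TS26 on 3R had 4.88 and 5.69 against 13.8, 10.3 and 8.90, at -0.78 (limma adjusted p = 0.0014).

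The largest difference in favour of dopamine neurons was at the start site of CR44365 (2R 13574794 to 13575185). Fold enrichment was 5.64 and 8.08 in dopamine libraries and 1.57, 2.28 and 1.46 in GABA libraries. The log2 difference was 2.08 ± 0.17 (SE, limma adjusted p = 2.06e-05), or 4.24 times. At CR45687 (3L 1808021 to 1808435) the values were 6.76 and 8.42 against 1.73, 2.22 and 2.55, and at CR44773 (2L 6079858 to 6080693) 6.61 and 8.88 against 2.62, 2.11 and 2.41. Both regions were in the promoter class, with log2 differences of 2.06 and 1.98. The next in size, CR45370, CR45543 and CR44829, followed at 1.95, 1.95 and 1.94. Of these 6 regions, 5 were promoter regions and CR45370 was distal intergenic. In all 6 every dopamine library was above every GABA library. They were chosen for the largest limma differences, so this separation is not a separate result.

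The largest differences in favour of GABA neurons needed a closer look at the peak behind them. CR45559 (3R 6893670 to 6893788) had 3.53 and 3.53 against 16.2, 14.9 and 9.92, a log2 difference of -1.67 (limma adjusted p = 2.95e-05). The region is 119 bp wide, and in the GABA libraries the summit of that peak lay outside it. With peaks whose summit fell in the region, the values were 3.53 and 3.53 against 3.24, 2.74 and 2.20, and the difference became 0.34 (adjusted p = 0.0874). A region nearest to CR45877, 13289 bp from the CR45877 start site, lies in intron 2 of *dpr6* (3L 10013120 to 10013369). It had 1.88 and 1.94 against 7.70, 4.06 and 5.58, at -1.64. By summits inside the region the GABA libraries had 4.46, 4.06 and 2.90. The start site of CR44933 (3R 7037098 to 7037942) held its own summit in every library, with 3.31 and 5.01 against 17.4, 15.8 and 11.2, at -1.58 ± 0.13 (SE, limma adjusted p = 2.24e-05). A region nearest to CR46016, 4665 bp from the CR46016 start site, lies in intron 2 of the octopamine receptor gene *Octbeta3R* (3R 12538451 to 12539165). It had 2.25 and 2.73 against 8.93, 7.16 and 5.62, at -1.49. CR45967 and CR44971 stood at -1.53 and -1.45.

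The lncRNA regions with the highest median percentile over the 5 libraries were promoter regions of CR46336, CR44933, CR45899, CR45267 and CR46004. CR46336 (2R 12904234 to 12904958) had 4.81 and 6.83 against 16.7, 15.8 and 11.6, and CR45899 (3R 7000589 to 7001253) 4.21 and 6.03 against 18.5, 17.5 and 11.2. All 5 were higher in GABA neurons, with log2 differences from -0.95 at CR46336 and CR45267 to -1.58 at CR44933. Groups did not overlap at any of them. The median was taken over 2 dopamine and 3 GABA libraries, so this choice favours regions high in GABA neurons. Their shared direction is therefore not a separate result.

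Among regions called in a single neuron type, strong peaks were often shared with a neighbouring region. CR45710 (X 18679099 to 18680009) had 6.31 and 7.51 in dopamine libraries, no GABA peak, and its summit inside the region. A region of CR44707 at X 18680086 overlapped this same peak interval, and its own summits reached 3.23 and 3.76. At the start site of CR44769 (2L 18735566 to 18735750) the interval reached 7.14 and 8.76 and the summits inside the region 3.61 and 4.32. At CR45646, CR43334 and CR44156 the highest summit also lay outside the region, and at CR44156 no summit lay inside it in either library. Ranked by the lowest of the GABA libraries, the GABA-only regions were led by one 6410 bp from CR40469 near the tip of X (X 115879 to 116083), with 9.99, 9.23 and 7.73. CR46349 (X 4075440 to 4075663), 12 bp from its start site, had 6.75, 7.86 and 3.95, CR46118 on 3R had 5.09, 5.90 and 4.25, and CR45578 on 3R had 4.18, 4.06 and 4.61. These regions have their summits inside. CR45383 had 12.3, 10.9 and 4.24, which fell to 4.42, 4.34 and 4.24 by inside summits, and CR43495 fell from 5.64, 5.86 and 4.87 to 3.40, 2.43 and 2.63. With summits required inside the region, 485 lncRNA regions were dopamine-only and 1512 GABA-only, and limma called 234 and 421. The shares of all regions under this rule are not given here.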

How the data were processed

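ATAC-seq was analysed in 2 dopamine and 3 GABA libraries. The authors trimmed adapters with CutAdapt, aligned reads to *Drosophila* Release 6 (BDGP6 in the submitters' notes) with Bowtie2, sorted them with SAMtools, removed duplicates with Picard and called peaks in each library with MACS2. The MACS2 settings, any Tn5 shift of reads and how the tested regions were made are not given in the sources used here. In the peak lists the authors deposited a fold enrichment (a ratio over background), a -log10 q value and a summit offset for each peak. In the comparison table the authors deposited a mean signal per region (normalized counts from featureCounts and DESeq2, averaged over all 5 libraries) and a ChIPseeker annotation. The table's own log2 fold changes, standard errors, statistics and p-values were not used. Because the table has no value per library, neuron types were compared from the peaks.

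For each region and library, the highest fold enrichment of a peak overlapping by at least 1 bp was taken. Regions with a peak in all 5 lists were tested on log2 fold enrichment with limma 3.58.1 (R 4.3.3), quantile normalized, with no covariate, adjusted by Benjamini-Hochberg at 0.05. This restriction leaves out regions called in 1 neuron type, so regions called in only some lists were counted and not tested. Shares and medians were compared over libraries by exact tests, two-sided (10 splits of 2 against 3). Overlaps, ranks and counts were computed in Python 3.11.15 (pandas 2.3.3, numpy 2.4.6), figures were drawn with matplotlib 3.10.9, and the functions were tested on simulated data. The deposited files hold no read counts per library and the depths the study states were not used here, so no counting interval is given. Alternatives were leaving out each library, a -log10 q minimum of 5, overlap of 50% of the region, equal numbers of peaks, regions within 1 kb of a start site, median centring, -log10 q for fold enrichment, missing peaks set to the lowest value of the list, stricter thresholds and a replicate block. Requiring the summit inside the region was added after seeing the data.

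Named items were all lncRNA genes with a name other than CR and a number, the 5 genes with most regions, the 5 regions of highest median percentile, and the 6 largest in each direction by call pattern and by limma, 1 per gene. Members, lists and rules were chosen with earlier results of these data known. No DNA sequence is printed because no genome was used here.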

Additional observations from a re-analysis of the deposited data

Results flagged for a closer look

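The share of lncRNA regions with a peak, set against other regions of the same library, was lower in both dopamine libraries and higher in all 3 GABA libraries, which is why it is listed here. The gap between neuron types was -17.2 points over all regions, -13.9 points in promoter regions, -13.4 points in introns and -3.00 points in distal intergenic DNA. Each gap had an exact permutation p = 0.2, the smallest that 2 against 3 libraries allow. The dopamine and GABA lists also differ in number of peaks and range of fold enrichment, and the part of this in the gap was not tested beyond the list of equal numbers of peaks, where the gap over all regions was -15.8 points.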

How the results depend on the processing

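Shares, percentiles and call patterns kept their direction under most alternatives. The difference in the share of lncRNA regions with a peak, dopamine minus GABA, stayed between -30.3 and -25.2 points without each library, and was -18.4 with equal numbers of peaks and -10.6 within 1 kb of the start site. The gap between neuron types relative to other regions ranged from -18.8 to -15.7 without each library. The difference in median percentile ranged from -30.1 to -17.0. The mean difference between lncRNA and other regions ranged from -3.51 to 1.66 without each library, and turned to 2.86 with an overlap of 50% of the region, as did the promoter difference (1.66, and -5.97 to -1.42 without each library). The percentile difference between lncRNA and other regions ranged from -4.58 to -1.50.

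Counts moved with the settings that change how many regions are tested. Regions higher in dopamine neurons numbered 86 with 50% overlap, 108 within 1 kb and 806 with missing peaks at the lowest value of the list, and 184 to 250 without each library. Regions higher in GABA neurons numbered 167, 158 and 1650 in the same settings, 207 with a -log10 q of at least 5, and 360 to 419 without each library. Within 1 kb, 211 regions were dopamine-only and 277 GABA-only. Without each library these patterns held 538 to 607 and 1742 to 1970 regions. All these counts are of lncRNA regions, and the shares of all regions in the same settings are not given here.

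Deviations from the group means were nearly uncorrelated between same-numbered libraries at the fitted regions (r = -0.03 and 0.05 for the 2 shared numbers). The deviations of the 2 dopamine libraries mirror each other, so these values are not separate checks. They do not settle whether the libraries are paired. With a replicate block, 232 and 409 lncRNA regions were called in place of 229 and 416. For the 28 named regions past the threshold, 311 of 326 values under alternatives kept direction and call. A further 13 lost the call and 2 turned direction, *Hsromega* at -0.048 with median centring and CR45559 at 0.34 by inside summits. Settings under which a region could not be fitted gave no value and are not among the 326. CR44365, for example, had none with a -log10 q of at least 5, with 50% overlap or with equal numbers of peaks. List settings, which are not given in the sources used here, and read depth, which was not used, limit every comparison of calls between neuron types, and with 2 against 3 libraries no exact permutation test could reach 0.05.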
